A study of Mus musculus with 8 samples.

Results

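Chromatin regulators add, remove or read chemical marks on histones, or slide and evict nucleosomes, and so set which genes a muscle fibre can transcribe. In skeletal muscle, class IIa histone deacetylases hold the MEF2 transcription factors in check, BAF remodelling complexes open muscle genes together with MyoD, and Polycomb complexes keep silent genes silent. The genes described here were found by a rule on gene names: Kdm, Hdac, Chd, Setd, Cbx, Phf, Brd, Ezh, Sirt, Ing and Arid genes with a number in the symbol, and all Smarc and Mll symbols, with Cbx8 left out. They come to 55 genes of 13 families, among 6028 genes that the authors list as significant in either of 2 comparisons. The rule reads names and no values, but the families were chosen with earlier results of these data known, and every member passed the authors' test in at least 1 comparison by being listed.

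Tibialis anterior, the muscle along the shin, was taken at an age of 12 to 14 weeks, with 2 libraries in each of 4 groups. Cachectic Balb/c mice carried metastases of 4T1, a mouse breast cancer line, and were set against healthy Balb/c mice. Cachectic CD2F1 mice carried metastases of C26m2, a mouse colon cancer line, and were set against healthy CD2F1 mice. Both cancer lines were labelled with luciferase, the injected tumours were removed after 2 to 3 weeks, and the cachectic mice were killed 5 weeks after injection. No injection or surgery is recorded for healthy mice, so that cancer, operation and injection cannot be told apart here. Levels are the authors' group values in FPKM, which scales fragments to transcript length and library size, with 1 value per group, so no spread between libraries can be given and sequencing depth is unknown. The p-values of the authors' test set the difference between groups against a spread estimated from 2 libraries per group. No label says that these libraries came from separate animals. In whole muscle, fewer cells of a type and less RNA per cell cannot be told apart.

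Most chromatin regulators that were listed were higher in cachectic muscle. The 4T1 table held 43 members, 34 higher and 9 lower, so 79.1% were higher, beside 53.1% of all 4334 genes in that table. The C26m2 table held 52 members, 43 higher and 9 lower, so 82.7% were higher, beside 58.9% of all 4832 genes. The tables list 32.8% of about 13218 genes tested in 4T1 and 36.8% of about 13121 in C26m2, and how many family genes were tested is not given. The median log2 ratio of members, cachectic over healthy, was 1.19 in 4T1 and 0.96 in C26m2, against 0.86 and 0.72 over all listed genes. With each table centred on that median of all its listed genes, the split of members was 29 higher and 14 lower in 4T1 and 38 higher and 14 lower in C26m2.

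The changes were moderate in size. Among higher members the median log2 ratio was 1.47 in 4T1 and 1.01 in C26m2, against 1.48 and 1.14 over all higher genes. Among lower members the median fold was 2.08 in 4T1 and 2.05 in C26m2, against 3.09 and 2.61 for all lower genes. At q of 0.01 or less in the authors' deposited tables, 30 of 43 members were called in 4T1, beside 68% of listed genes, and 36 of 52 in C26m2, beside 71%. A change of 2-fold or more was reached by 36 of 43 members in 4T1, beside 85.2% of listed genes, and by 30 of 52 in C26m2, beside 64.8%. In the authors' deposited tables the q-values of members ran between 0.000382 and 0.0477 in 4T1 and between 0.000319 and 0.0346 in C26m2. Levels of members ran from 0.407 to 60.5 FPKM in 4T1 cachectic muscle and from 0.461 to 94.4 FPKM in healthy Balb/c muscle. They ran from 0.364 to 180.5 FPKM in C26m2 cachectic muscle and from 0.807 to 76.3 FPKM in healthy CD2F1 muscle.

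**Figure D1:**
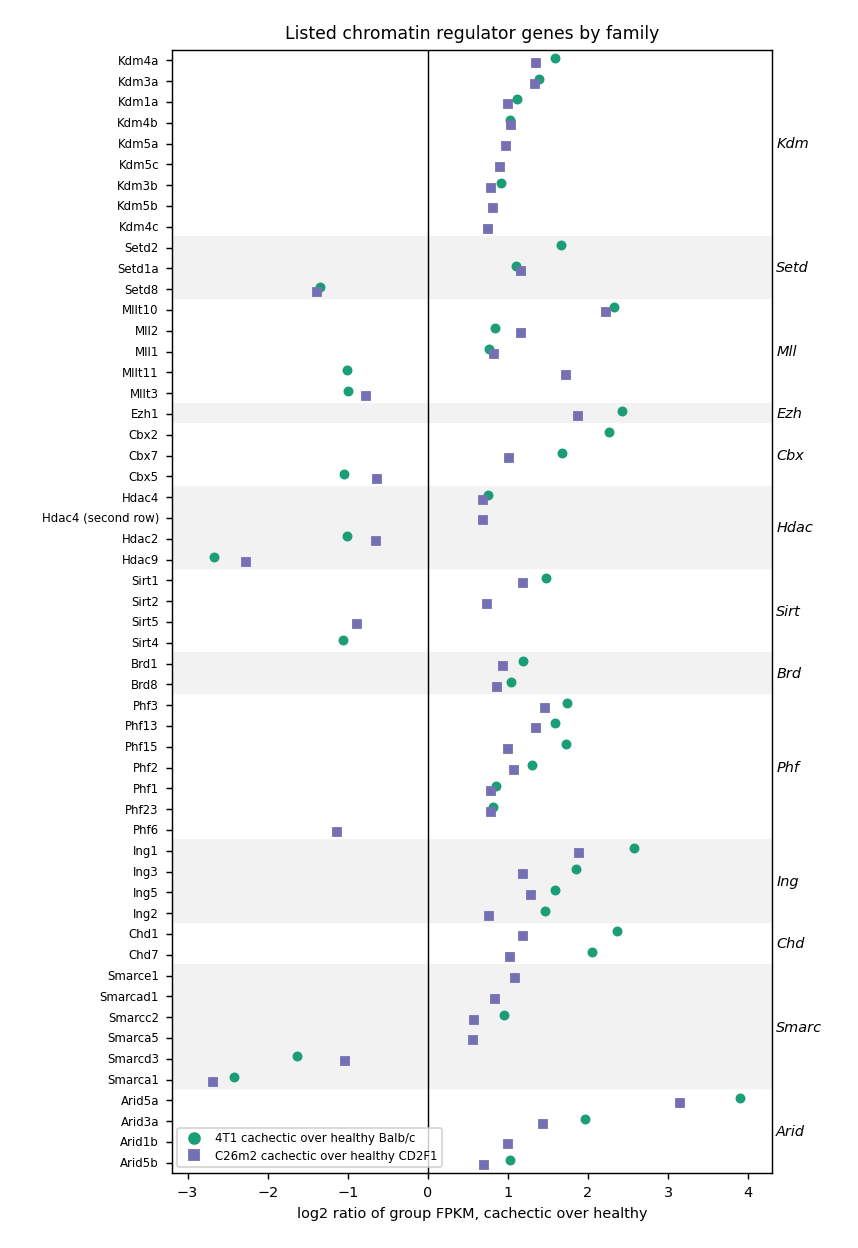
Log2 ratio of group FPKM, cachectic over healthy, for the listed members described here, grouped by family down the page. Circles are 4T1 and squares C26m2, each 1 group value over another with no error bar. Points lie mostly right of 0, and the points left of 0 sit in the Setd, Mll, Cbx, Hdac, Sirt, Phf and Smarc families.

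Some members with large rises and falls in both models are shown by the 250 bases before their annotated start, since these windows hold the DNA next to which transcription begins. Sequences are from RefSeq, build GRCm38.p6, matched by current symbol, for 41 of 54 members with a current symbol. Shown are Arid5a and Ezh1, of highest mean log2 ratio among genes with a single window, and Smarca1 and Hdac9, of lowest mean among all members. Smarcd3 is the next lowest with a single window, and Mllt11 moved in opposite directions. Mllt10 and Ing1 had a higher mean than Ezh1, and Setd8 a lower one than Smarcd3. These have several windows and are not shown, while Hdac9 is shown with all of its windows. Arid5a lies at chr1:36307483-36307732 on the plus strand. The others are on the minus strand: Ezh1 at chr11:101226464-101226713, Smarca1 at chrX:47892614-47892863, Smarcd3 at chr5:24602003-24602252 and Mllt11 at chr3:95228678-95228927. Hdac9 has a distal window at chr12:34917096-34917345 and a proximal one at chr12:34528890-34529139, both on the minus strand. Capitals mark every match, on either strand, to 9 motifs: FoxO (TGTTTAC), glucocorticoid receptor (GNACA and TGTNC with 3 bases between), STAT (TTCNNNGAA), CRE (TGACGTCA), clock-type E-box (CACGTG), myogenic E-box (CAGCTG), NRF1 (GCGC and TGCGC with 1 base between), GC box (GGGCGG) and CCAAT box (CCAAT). Matches may overlap, as the 2 GC boxes of Smarcd3 do.
Arid5a: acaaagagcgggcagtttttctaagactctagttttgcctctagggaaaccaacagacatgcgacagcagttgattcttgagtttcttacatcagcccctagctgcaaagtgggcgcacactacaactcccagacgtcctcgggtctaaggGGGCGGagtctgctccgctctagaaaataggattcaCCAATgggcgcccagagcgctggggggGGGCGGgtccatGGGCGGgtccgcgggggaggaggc
Ezh1: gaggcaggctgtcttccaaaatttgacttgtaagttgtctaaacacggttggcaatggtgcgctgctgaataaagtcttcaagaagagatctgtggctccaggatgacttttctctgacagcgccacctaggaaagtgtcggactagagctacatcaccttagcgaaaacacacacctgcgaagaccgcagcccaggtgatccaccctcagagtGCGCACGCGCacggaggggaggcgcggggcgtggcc
Smarca1: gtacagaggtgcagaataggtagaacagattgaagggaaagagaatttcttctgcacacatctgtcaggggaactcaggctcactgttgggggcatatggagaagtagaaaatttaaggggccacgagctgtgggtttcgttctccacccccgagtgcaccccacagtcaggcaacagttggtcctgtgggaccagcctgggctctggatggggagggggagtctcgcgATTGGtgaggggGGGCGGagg
Hdac9, distal window: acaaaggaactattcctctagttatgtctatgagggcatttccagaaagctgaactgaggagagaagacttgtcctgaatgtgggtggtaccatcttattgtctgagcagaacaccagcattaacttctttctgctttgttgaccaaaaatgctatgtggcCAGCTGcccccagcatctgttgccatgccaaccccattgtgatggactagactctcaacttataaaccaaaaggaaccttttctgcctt
Hdac9, proximal window: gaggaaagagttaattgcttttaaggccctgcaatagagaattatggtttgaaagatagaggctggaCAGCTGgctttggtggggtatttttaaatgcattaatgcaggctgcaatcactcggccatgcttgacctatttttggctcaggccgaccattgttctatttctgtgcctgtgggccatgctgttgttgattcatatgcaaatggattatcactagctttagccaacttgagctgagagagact
Smarcd3: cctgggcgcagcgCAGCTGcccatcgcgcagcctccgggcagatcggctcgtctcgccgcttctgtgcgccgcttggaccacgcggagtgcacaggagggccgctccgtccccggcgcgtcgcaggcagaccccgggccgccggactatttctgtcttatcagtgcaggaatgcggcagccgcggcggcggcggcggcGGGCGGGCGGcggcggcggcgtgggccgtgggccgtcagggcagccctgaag
Mllt11: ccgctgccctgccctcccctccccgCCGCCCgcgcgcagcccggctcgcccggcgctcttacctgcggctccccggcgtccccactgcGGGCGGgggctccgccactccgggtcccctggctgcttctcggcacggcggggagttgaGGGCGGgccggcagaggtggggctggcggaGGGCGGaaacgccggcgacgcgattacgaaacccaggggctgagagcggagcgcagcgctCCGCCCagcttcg

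Member windows were rich in CpG, the dinucleotide of CpG islands. The median was 22 CpG in 59 member windows, against 10 in 21263 windows of protein-coding genes. It was 23 in 44 windows of higher members and 13.5 in 14 windows of lower members. The myogenic E-box, the letters bound by MyoD, was found in 5 of 9 lower members with a window (Cbx5, Hdac9, Setd8, Mllt3 and Smarcd3) and in 3 of 31 higher members, against 13.8% of protein-coding genes. A gene with several windows has more room for a match. Counted by window, the E-box was in 42.9% for lower members, 6.82% for higher members and 12.1% for protein-coding genes. Both Hdac9 windows and the Smarcd3 window above hold it. The NRF1 letters, seen above in Ezh1, were in 7 of 41 members, against 5.84% of protein-coding genes, and by window in 16.9% against 5.18%. The FoxO and glucocorticoid receptor letters were in no member window, and in 2.62% and 0.357% of protein-coding windows. The GC box was in 69.5% of member windows and 42.6% of protein-coding windows, and the CCAAT box in 44.1% and 35.4%. The STAT letters were in 8.47% and 6.58%, the CRE letters in 3.39% and 1.92%, and the clock-type E-box in 5.08% and 6.63%. These are matches of letters chosen with the values known, not sites, and windows of the same gene can overlap. Protein-coding genes include genes that were not listed. Whether other listed genes share the CpG and motif values of members was not tested.

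Histone demethylases of the Kdm family rose wherever they were listed. All 5 listed in 4T1 and all 9 listed in C26m2 were higher, beside 53.1% and 58.9% of all listed genes. By current symbol 18 Kdm genes are annotated, and the rest were not listed. Of all genes tested, 32.8% were listed in 4T1 and 36.8% in C26m2. Kdm4a, which removes methyl groups from lysines 9 and 36 of histone H3, reached 21.3 FPKM in 4T1 cachectic muscle, against 7.07 FPKM in healthy Balb/c muscle, a 3.02-fold difference. In C26m2 cachectic muscle Kdm4a stood at 13.3 FPKM, against 5.20 FPKM in healthy CD2F1 muscle. Kdm3a, which acts on lysine 9 of histone H3, was 2.62-fold higher in 4T1 (10.3 against 3.95 FPKM) and 2.54-fold higher in C26m2 (9.25 against 3.64 FPKM). These were the largest changes of the family in both models.

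The other Kdm genes changed by less. Kdm4b was 2.03-fold higher in 4T1 and 2.06-fold in C26m2, and Kdm1a (LSD1), a demethylase of lysine 4 of histone H3, 2.16-fold and 2.01-fold. Kdm3b was 1.88-fold and 1.73-fold higher. Kdm4c, Kdm5a, Kdm5b and Kdm5c were listed in C26m2 only, with ratios of 1.68, 1.97, 1.76 and 1.87. The Kdm5 enzymes remove methyl groups from lysine 4 of histone H3. Absence from the 4T1 table does not show that they were unchanged there.

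Histone methyltransferases were split, with Setd8 the member that fell. Setd8 (current symbol Kmt5a), which places a single methyl group on lysine 20 of histone H4, was at 17.5 FPKM in 4T1 cachectic muscle, against 44.6 FPKM in healthy Balb/c muscle. It was at 19.6 FPKM in C26m2 cachectic muscle, against 51.1 FPKM in healthy CD2F1 muscle. The falls were 2.54-fold and 2.61-fold, nearly equal in size. Setd1a, which methylates lysine 4 of histone H3, rose 2.14-fold in 4T1 and 2.24-fold in C26m2. Setd2, which trimethylates lysine 36 of histone H3, was listed in 4T1 only, at 41.4 FPKM in cachectic muscle and 13.1 FPKM in healthy Balb/c muscle.

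The Mll symbols take in the methyltransferases Mll1 and Mll2 and also Mllt genes, which were named as fusion partners of MLL in leukaemia. Mll1 (Kmt2a) rose 1.70-fold in 4T1 and 1.77-fold in C26m2, and Mll2 (the identifier of Kmt2d) 1.79-fold and 2.24-fold, both turning to slightly below 0 on the log2 scale in 4T1 under the centring above. Mllt10 (AF10), a partner of the methyltransferase Dot1l, was at 40.5 FPKM in 4T1 cachectic muscle, against 8.08 FPKM in healthy Balb/c muscle. Its level was 42.6 FPKM in C26m2 cachectic muscle, against 9.11 FPKM in healthy CD2F1 muscle, so the rise was 5.02-fold and 4.67-fold. Mllt3 (AF9), a reader of acetylated histones, fell instead, to 38.1 FPKM in 4T1 cachectic muscle against 76.4 FPKM in healthy Balb/c muscle. In C26m2 cachectic muscle it was at 38.4 FPKM, against 65.3 FPKM in healthy CD2F1 muscle.

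Mllt11 (AF1q) was the single member listed in opposite directions. Its level was 37.0 FPKM in 4T1 cachectic muscle, against 74.7 FPKM in healthy Balb/c muscle, a 2.02-fold fall. It was 180.5 FPKM in C26m2 cachectic muscle, against 54.8 FPKM in healthy CD2F1 muscle, a 3.29-fold rise. The log2 ratio in 4T1 minus that in C26m2 was -2.73, with a standard error of at most 0.57, and passed the difference test (a normal approximation on the deposited p-values with adjustment over 3138 genes listed in both tables). That test passed 26 genes, 0.829% of those listed in both. These were all of the 26 genes listed with opposite signs, so for Mllt11 the pass restates the signs. The 4T1 fall of Mllt11 carried a q-value of 0.0297 in the authors' deposited table and is not called at q of 0.01 or less.

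Polycomb components were mostly higher. Ezh1, a catalytic subunit of the Polycomb complex PRC2 that prevails in non-dividing tissue, stood at 60.5 FPKM in 4T1 cachectic muscle, the highest level of any member in that group, against 11.2 FPKM in healthy Balb/c muscle. It stood at 46.9 FPKM in C26m2 cachectic muscle, against 12.8 FPKM in healthy CD2F1 muscle. The rise was 5.39-fold and 3.65-fold. Ezh2, the other annotated member of the family, was in neither table. Of the Cbx genes, Cbx7, a chromodomain subunit of the Polycomb complex PRC1, rose 3.19-fold in 4T1 (10.5 against 3.30 FPKM) and 2.01-fold in C26m2 (9.37 against 4.65 FPKM). Cbx2, another PRC1 subunit, was listed in 4T1 alone, at 2.21 FPKM in cachectic and 0.461 FPKM in healthy Balb/c muscle. Cbx5, the heterochromatin protein HP1-alpha and not a Polycomb subunit, fell 2.07-fold in 4T1 (3.11 against 6.42 FPKM) and 1.56-fold in C26m2 (4.46 against 6.94 FPKM).

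Histone deacetylases had the highest share of falls in 4T1, together with Smarc, but over only 3 listed genes in each family. In both families 2 of 3 fell in 4T1, beside 46.9% of all listed genes. In C26m2, 2 of 4 Hdac rows fell, beside 41.1% of all listed genes. Hdac9, a class IIa deacetylase that represses MEF2, had the largest ratio of any fall among members in 4T1, to 0.531 FPKM in cachectic muscle against 3.37 FPKM in healthy Balb/c muscle. In C26m2 cachectic muscle it was at 0.367 FPKM, against 1.77 FPKM in healthy CD2F1 muscle. The falls were 6.35-fold and 4.83-fold. With 1 FPKM added to each level, the log2 ratio in 4T1 was -1.51 in place of -2.67, and Smarcd3 (-1.60) fell furthest. Hdac2, a class I deacetylase of the NuRD and Sin3 corepressors, fell 2.02-fold in 4T1 (16.6 against 33.5 FPKM) and 1.57-fold in C26m2 (18.9 against 29.6 FPKM). Hdac4, a class IIa relative of Hdac9, went the other way, to 6.28 FPKM in 4T1 cachectic muscle against 3.73 FPKM in healthy Balb/c muscle. The C26m2 table holds 2 rows named Hdac4 under different identifiers, 1.61-fold and 1.62-fold higher, and the second identifier has no entry in the reference table. Under the centring above, Hdac4 lay below 0 on the log2 scale in both models.

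The sirtuins, enzymes that need NAD, went both ways. Sirt1, a nuclear member, rose to 11.7 FPKM in 4T1 cachectic muscle, against 4.22 FPKM in healthy Balb/c muscle. Sirt1 rose to 8.97 FPKM in C26m2 cachectic muscle, against 3.95 FPKM in healthy CD2F1 muscle. Sirt2, mainly cytoplasmic, was listed in C26m2 at 92.9 FPKM in cachectic and 55.4 FPKM in healthy CD2F1 muscle. The mitochondrial Sirt4 fell 2.08-fold in 4T1 (5.18 against 10.8 FPKM), and the mitochondrial Sirt5 fell 1.85-fold in C26m2 (3.72 against 6.86 FPKM). Each of these 3 genes was listed in a single table.

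**Figure D2:**
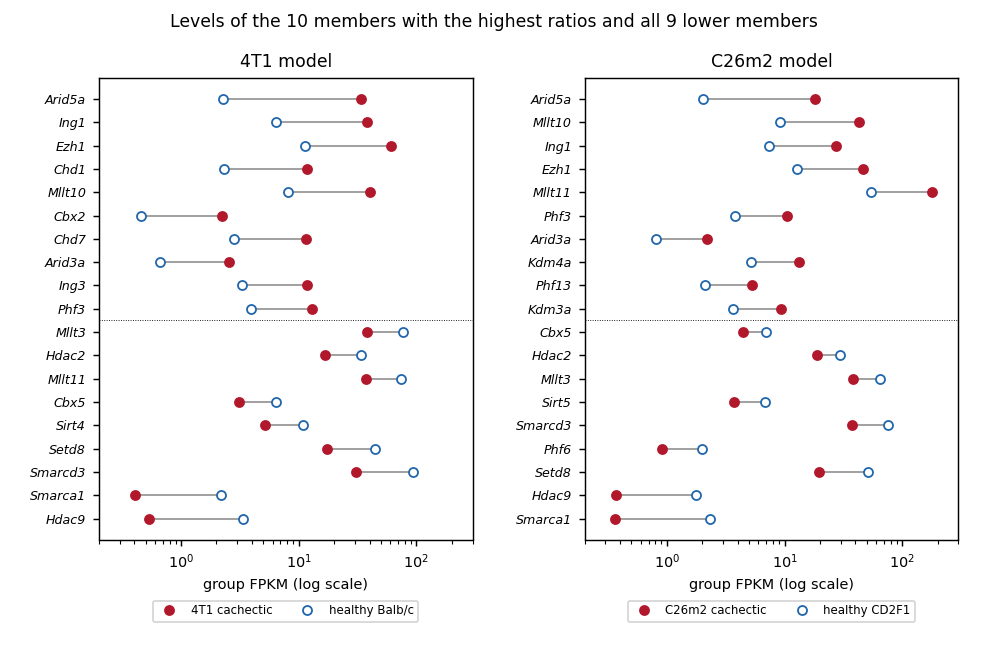
Group FPKM on a log scale for the 10 members with the highest ratios (above the dotted line) and all 9 lower members in each model; filled points are cachectic and open points healthy groups. Hdac9 and Smarca1 lie at the low end of the scale in both models, and Mllt11 is among the rises in C26m2 and among the falls in 4T1.

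Bromodomain, Ing and Phf genes, readers of histone marks, rose in each listed case except Phf6. The bromodomain genes Brd1 and Brd8 rose 2.29-fold and 2.06-fold in 4T1, and 1.92-fold and 1.83-fold in C26m2. Brd1 belongs to acetyltransferase complexes and Brd8 to the TIP60 complex. Brd1 stood at 17.3 FPKM in 4T1 cachectic muscle, against 7.56 FPKM in healthy Balb/c muscle, and at 15.7 FPKM in C26m2 cachectic muscle, against 8.19 FPKM in healthy CD2F1 muscle.

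The Ing genes, PHD-finger readers of methylated lysine 4 of histone H3, were listed for 4 of 5 annotated members. Of all genes tested, 32.8% were listed in 4T1 and 36.8% in C26m2. All 4 Ing genes were higher in both models, beside 53.1% and 58.9% of all listed genes. Ing1, a subunit of the Sin3 deacetylase complex, rose to 38.2 FPKM in 4T1 cachectic muscle, against 6.42 FPKM in healthy Balb/c muscle, and to 27.3 FPKM in C26m2 cachectic muscle, against 7.37 FPKM in healthy CD2F1 muscle. Its rise was 5.95-fold and 3.70-fold. Ing3, a TIP60 subunit, rose 3.61-fold in 4T1 and 2.28-fold in C26m2. Ing5, found in acetyltransferase complexes, rose 3.02-fold and 2.43-fold, and Ing2, a Sin3 subunit like Ing1, 2.75-fold and 1.70-fold. The median log2 ratio of the 4 genes was 1.72 in 4T1 and 1.24 in C26m2.

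Of the listed Phf genes, which share the PHD finger and little else, 6 of 6 rose in 4T1 and 6 of 7 in C26m2. Over all listed genes the shares higher were 53.1% and 58.9%. Phf3, which binds RNA polymerase II, was 3.32-fold higher in 4T1 (13.04 against 3.92 FPKM) and 2.76-fold in C26m2 (10.4 against 3.76 FPKM). Phf15 (Jade2), a subunit of an acetyltransferase complex, was 3.31-fold and 2.01-fold higher, and Phf13, a reader of methylated histone H3, 2.99-fold and 2.54-fold. Phf2, a relative of the demethylases, was 2.46-fold and 2.11-fold higher. Phf1, an accessory PRC2 subunit, was 1.81-fold and 1.73-fold higher, and Phf23 1.76-fold and 1.73-fold. Centring turned Phf1 and Phf23 to slightly below 0 on the log2 scale in 4T1. Phf6, whose human gene is mutated in an intellectual disability syndrome, fell in C26m2, to 0.903 FPKM in cachectic muscle against 1.98 FPKM in healthy CD2F1 muscle.

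Nucleosome remodellers went both ways. The ATP-driven remodellers Chd1 and Chd7 rose 5.15-fold and 4.14-fold in 4T1, where both stood near 12 FPKM in cachectic muscle (11.8 and 11.6 FPKM), against 2.30 and 2.80 FPKM in healthy Balb/c muscle. In C26m2 they rose 2.28-fold and 2.03-fold, to 6.22 and 5.26 FPKM in cachectic muscle, against 2.73 and 2.60 FPKM in healthy CD2F1 muscle. Among members higher in both models these had the widest gaps in log2 ratio, 1.18 and 1.03 larger in 4T1. With standard errors of at most 0.66 and 0.57, neither gap passed the normal approximation test.

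In the Smarc family 2 genes fell in both models while the rest rose. Smarca1 (SNF2L), a motor subunit of ISWI remodellers, was at 0.407 FPKM in 4T1 cachectic muscle, against 2.17 FPKM in healthy Balb/c muscle, a 5.34-fold fall. It was at 0.364 FPKM in C26m2 cachectic muscle, against 2.33 FPKM in healthy CD2F1 muscle, a 6.42-fold fall and the largest ratio of any fall in that model. With 1 FPKM added to each level, its log2 ratio was -1.17 in 4T1 in place of -2.42 and -1.29 in C26m2 in place of -2.68, and Setd8 (-1.34) fell furthest in C26m2. Smarcd3 (BAF60C), the BAF subunit that works with MyoD and in fast glycolytic fibres, was at 30.5 FPKM in 4T1 cachectic muscle, against 94.4 FPKM in healthy Balb/c muscle. Its level was 37.2 FPKM in C26m2 cachectic muscle, against 76.3 FPKM in healthy CD2F1 muscle. In healthy Balb/c and healthy CD2F1 muscle Smarcd3 was the most abundant listed member.

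The remaining Smarc genes were higher where listed. Smarcc2 (BAF170), a core BAF subunit, rose 1.93-fold in 4T1 and 1.49-fold in C26m2. Smarca5 (SNF2H), the second ISWI motor, rose 1.48-fold in C26m2, while Smarcad1, a remodeller of heterochromatin, rose 1.78-fold and the BAF subunit Smarce1 (BAF57) rose 2.13-fold there. Smarcc2 and Smarca5 turned to below 0 on the log2 scale in C26m2 under centring. The median log2 ratio of the family was -1.63 over 3 genes in 4T1 and 0.57 over 6 genes in C26m2, over different sets of genes.

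The Arid genes, DNA-binding proteins with an AT-rich interaction domain, all rose where listed, 3 in 4T1 and 4 in C26m2. Over all listed genes, 53.1% and 58.9% were higher. Arid5a, which in mice also binds and stabilises Il6 mRNA, showed the largest rise of any member in both models. It reached 33.9 FPKM in 4T1 cachectic muscle, against 2.27 FPKM in healthy Balb/c muscle, and 18.05 FPKM in C26m2 cachectic muscle, against 2.03 FPKM in healthy CD2F1 muscle. The rise was 15.0-fold and 8.90-fold, rank 120 of 4334 and rank 117 of 4832 listed genes by log2 ratio. Arid3a rose 3.89-fold in 4T1 (2.56 against 0.659 FPKM) and 2.72-fold in C26m2 (2.19 against 0.807 FPKM). Arid5b, a partner of Phf2, rose 2.03-fold and 1.63-fold, and in C26m2 lay just below 0 on the log2 scale under centring. Arid1b, a BAF subunit, was listed in C26m2 alone, 2.01-fold higher.

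Of 55 members, 40 were listed in both tables, 3 in the 4T1 table alone and 12 in the C26m2 table alone. The 40 were 93.0% of members in the 4T1 table and 76.9% of those in the C26m2 table, against 72.4% and 64.9% for all genes. Of these, 32 were higher in both, 7 lower in both and 1 opposite, so 97.5% shared their direction, no more than the 99.2% of all genes listed in both. The 7 lower in both were Cbx5, Hdac2, Hdac9, Mllt3, Setd8, Smarca1 and Smarcd3. The comparisons share no library. Across the 40 genes Pearson's r of the log2 ratios was 0.91, against 0.93 over all genes listed in both. Across the 32 higher in both it was 0.88, against 0.77 over all genes higher in both. These are descriptions, since each listed value had to pass a test.

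Log2 ratios of higher members were mostly larger in 4T1. Among members higher in both, 28 of 32 (87.5%) had the larger log2 ratio in 4T1, beside 68.7% of all 1744 genes higher in both, with a median difference of 0.25 against 0.18 on the log2 scale. The exceptions were Kdm4b, Mll1, Mll2 and Setd1a. Among members lower in both, 5 of 7 fell further in 4T1, beside 75.8% of all 1368 such genes. The tables were made separately, so these gaps also hold any difference in how each was scaled. The smallest change listed also differed, with an absolute log2 ratio of 0.72 in 4T1 and 0.48 in C26m2. Its part in these gaps was not tested. For single genes the difference was not detectable: of 39 members with equal signs none passed the normal approximation test after adjustment, and 0 reached the 0.05 level before it. That test has little power for equal signs, because at the smallest p-value the standard error is known only to be at most 24.7% of the log2 ratio.

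**Figure D3:**
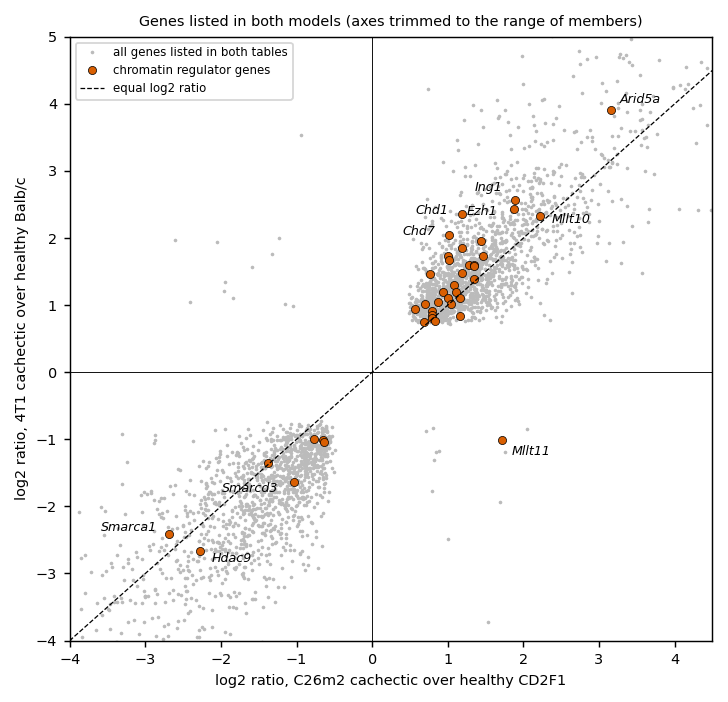
Log2 ratio in C26m2 (horizontal axis) and 4T1 (vertical axis), both cachectic over healthy, for 40 members (orange) over all genes listed in both tables (grey), with axes trimmed to the members' range. Most orange points in the upper right lie above the dashed line of equal ratio, and Mllt11 alone lies in the lower right.

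Chromatin genes outside these families were counted by 12 lists of 9 to 23 genes each, 183 genes in all. In 4T1, 47 of the 183 were listed, 35 higher and 12 lower (74.5% higher). In C26m2, 63 of the 183 were listed, 50 higher and 13 lower (79.4% higher). Of all listed genes, 53.1% and 58.9% were higher. Of all genes tested, 32.8% were listed in 4T1 and 36.8% in C26m2, and how many list genes were tested is not given. The counts per list that follow are out of its listed genes only. Histone acetyltransferases were higher in 3 of 3 in both models, with Kat5 (TIP60) up 2.33-fold in 4T1 and Gtf3c4 up 4.10-fold in C26m2. NuRD subunits were higher in 3 of 3 in 4T1, with Mta1 up 2.97-fold, and in 3 of 4 in C26m2, with Mta2 up 2.78-fold and Mbd3 down 1.53-fold. Histone chaperones and variants were higher in 8 of 9 in both, with the chaperones Daxx up 4.63-fold in 4T1 and Nap1l1 up 3.90-fold in C26m2. The histone variant gene H2afz fell, to 31.1 FPKM in 4T1 cachectic muscle against 91.4 FPKM in healthy Balb/c muscle, and by 2.78-fold in C26m2.

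Partners of the Hdac genes included the largest fall of the lists. Sap30, a Sin3 corepressor subunit, rose 8.34-fold in 4T1 and 8.88-fold in C26m2, and corepressor and MEF2 genes were higher in 4 of 5 and 6 of 7. Mef2c, one of the MEF2 factors that class IIa deacetylases bind, fell to 9.48 FPKM in 4T1 cachectic muscle, against 127 FPKM in healthy Balb/c muscle. It fell to 16.1 FPKM in C26m2 cachectic muscle, against 104 FPKM in healthy CD2F1 muscle. Its relatives Mef2a and Mef2d, which these deacetylases also bind, were higher in C26m2, 1.82-fold and 1.61-fold.

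Methyltransferases outside Setd, Ezh and Mll were higher in 4 of 6 in 4T1 and 6 of 9 in C26m2. Setdb2, of the family that methylates lysine 9 of histone H3, rose 7.54-fold and 6.91-fold. Smyd1, a methyltransferase of striated muscle needed for sarcomere assembly, fell to 25.2 FPKM in 4T1 cachectic muscle, against 263 FPKM in healthy Balb/c muscle. In C26m2 cachectic muscle Smyd1 was at 59.7 FPKM, against 179 FPKM in healthy CD2F1 muscle. Polycomb subunits outside Cbx, Ezh and Phf were higher in 5 of 7 and 9 of 11, with Asxl1 up 3.27-fold in 4T1 and Phc3 up 3.33-fold in C26m2, while Jarid2, a PRC2 cofactor, fell 1.96-fold and 2.27-fold. COMPASS core subunits, partners of Setd1a and the Mll enzymes, were higher in 2 of 3 and 3 of 4. Among them Wdr5 was up 2.52-fold and 2.87-fold and Rbbp5 down 2.59-fold and 1.91-fold.

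DNA methylation genes split. The DNA methyltransferase Dnmt3a fell to 4.24 FPKM in 4T1 cachectic muscle, against 15.8 FPKM in healthy Balb/c muscle, a 3.72-fold fall, and by 2.51-fold in C26m2. The methyl-CpG binding gene Mbd1 rose 1.95-fold in C26m2. Of this list 2 of 4 were higher in 4T1 and 4 of 6 in C26m2. BAF subunits outside the families were higher in 1 of 1 and 3 of 3, with Bcl7b up 3.23-fold and 3.09-fold. INO80, SRCAP, TIP60 and ISWI subunits were higher in 2 of 2 and 4 of 4, with Ino80 up 2.44-fold in 4T1 and Cecr2 2.35-fold in C26m2. Of other genes with a JmjC domain, 1 of 3 listed in 4T1 and 1 of 2 in C26m2 were higher. The higher one was Jmjd1c, a relative of Kdm3a, up 3.12-fold and 2.72-fold. The lower ones were hydroxylases of other proteins and not histone demethylases: Jmjd4, down 3.03-fold in 4T1, and Hif1an, down 2.39-fold in 4T1 and 1.59-fold in C26m2. The single listed arginine methyltransferase, Prmt2, fell 3.87-fold and 2.29-fold.

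**Figure D4:**
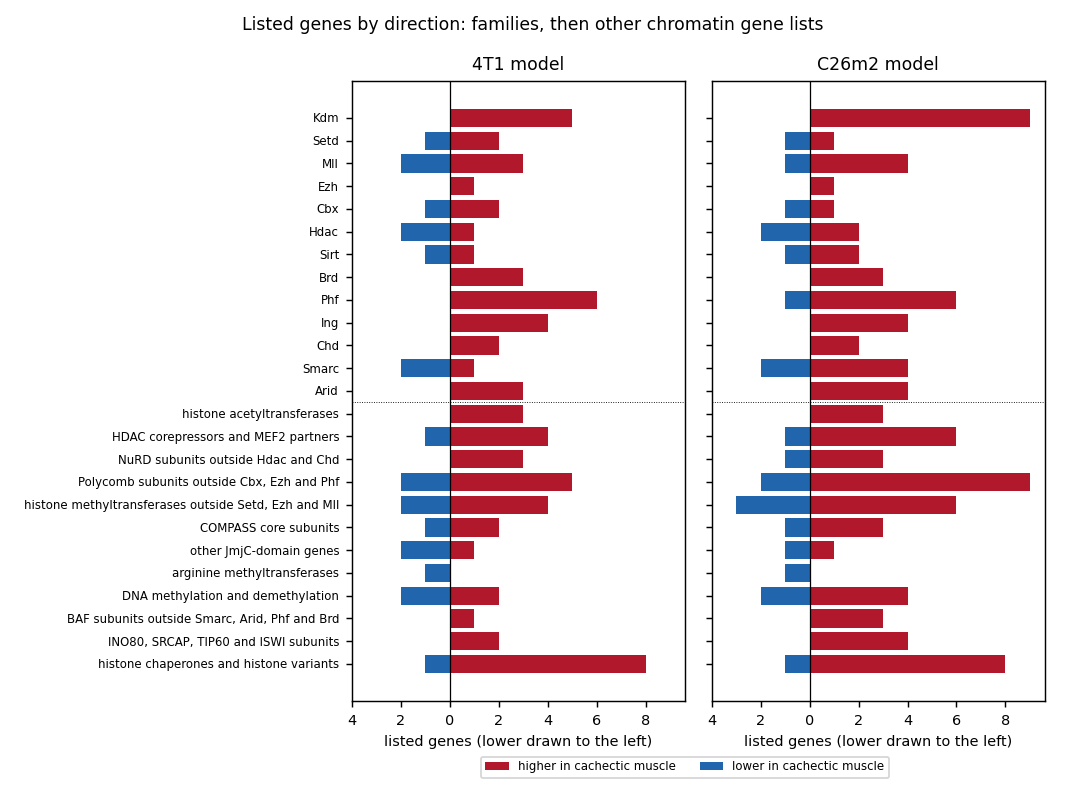
Number of listed genes higher (right of 0) and lower (left of 0) in cachectic muscle for the 13 families, above the dotted line, and the 12 other chromatin gene lists, with 4T1 in the left panel and C26m2 in the right. Higher genes outnumber lower ones in 10 of 13 families in each model.

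Markers of other cell types moved in the same samples. Fibroblast markers were lower for all 9 listed of 10 in both models, with a summed level of 82.1 FPKM in 4T1 cachectic muscle against 555 FPKM in healthy Balb/c muscle, and 92.1 FPKM in C26m2 cachectic muscle against 423 FPKM in healthy CD2F1 muscle. Neutrophil markers were higher for all 5 listed of 14 in 4T1 (2009.7 FPKM in sum in cachectic muscle, against 2.13 FPKM in healthy Balb/c muscle) and all 4 listed in C26m2 (61.7 against 6.16 FPKM). Macrophage markers were higher in 2 and lower in 5 of 13 in 4T1 (61.4 against 13.04 FPKM in sum). Most of the 4T1 cachectic sum was Cd68, at 51.8 FPKM against 2.64 FPKM in healthy Balb/c muscle. In C26m2, macrophage markers were higher in 1 and lower in 10 (30.5 against 61.6 FPKM). Endothelial markers were higher in 4 of 5 listed in 4T1 and 6 of 6 in C26m2, and of 10 lymphocyte markers Ighm was lower in both and Ptprc, which all leukocytes carry, was 8.13-fold higher in 4T1. Of 15 muscle markers, Myoz1 was listed in 4T1, 2.19-fold lower, and 5 were listed in C26m2, 2 higher and 3 lower. In C26m2 Des (1.71-fold) and Mb (myoglobin, 1.58-fold) were higher. Actn3 (1.65-fold), Pygm (1.66-fold) and Cacna1s (1.73-fold) were lower there. No listed marker had a value of 0. The part of these shifts in the falls of Hdac9 and Smarca1, or in any rise, was not tested.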

How the data were processed

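Poly-A RNA from 8 muscle samples was sequenced after Illumina TruSeq preparation, per the labels' protocols. For strand use and annotation release, the sources used here give nothing. Build NCBIM37, Cuffdiff, Cufflinks 2.2.1 and TopHat2 2.1.0 were used, per the submitters' processing notes. Each deposited table lists the significant genes of 1 comparison. The authors' group values are in FPKM, per the file headers, and the authors' log2 fold change, cachectic over healthy, differs from the log2 ratio of these values by at most 1.43e-05. The p-values and q-values are those deposited by the authors.

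Members were found by symbol, and counts, medians, ratios and ranks were computed with Python 3.11.15, pandas 2.3.3 and numpy 2.4.6. Listing in a table, which means a q-value up to 0.05, counted as a call. The number of genes tested is the median of q times rank over p. Genes were matched between tables by symbol, or by identifier where a table repeats a symbol. The difference between models used scipy 1.17.1: the standard error was the absolute log2 ratio over the normal quantile of the deposited p-value, two-sided, with Benjamini-Hochberg adjustment over all genes in both tables, and the code was tested on simulated data. No set test was run. Values of 2 genes that enter the counts are not reported here. Genes described in full were the 10 highest and 10 lowest members per table (9 are lower), the largest change per family and any with opposite signs. From the other lists the largest change in each direction per table was the guide, and a few others were named after their values were seen. Members, lists and motifs were chosen with earlier results of these data known. Alternatives were q of 0.01 or less, 1 FPKM or more, a log2 ratio of 1 or more, a pseudocount of 1 FPKM and centring, with 1 row per symbol and omission of Mllt genes added after seeing the data. Current symbols came from a reference of another build (GRCm38), where 4 members have a new symbol.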

Additional observations from a re-analysis of the deposited data

Results flagged for a closer look

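Mllt11 (AF1q) differed between the models. Its log2 ratio was -1.01 in 4T1 (37.0 FPKM in cachectic and 74.7 FPKM in healthy Balb/c muscle) and 1.72 in C26m2 (180.5 FPKM in cachectic and 54.8 FPKM in healthy CD2F1 muscle). The difference of the log2 ratios, 4T1 minus C26m2, was -2.73 and passed the test of the difference, a normal approximation on the deposited p-values. For a gene called in opposite directions this test restates the signs.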

How the results depend on the processing

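No paired analysis was possible because the labels give no replicate numbers shared between groups and the tables hold 1 value per group; for the same reason no library could be left out. At q of 0.01 or less, 30 of 43 members in 4T1 and 36 of 52 in C26m2 remained called, beside 68% and 71% of all listed genes, and 25 members were called in both models with the same direction and 0 with opposite directions. With a log2 ratio of 1 or more in size, 25 higher and 5 lower members were left in C26m2, and 25 had the same direction in both models. Centring raised the lower members to 14 in each model and those of opposite direction to 7, as the median of listed genes lies at 0.86 in 4T1 and 0.72 in C26m2, above 0. It turned Phf1 (-0.0082), Mll2 (-0.019), Phf23 (-0.047), Mll1 (-0.097) and Hdac4 (-0.11) in 4T1, and Arid5b (-0.018), both Hdac4 rows (-0.030 and -0.041), Smarcc2 (-0.15) and Smarca5 (-0.16) in C26m2. It also turned the median log2 ratio of the Mll (-0.097) and Sirt (-0.65) families in 4T1 and of Cbx (-0.54), Hdac (-0.71) and Smarc (-0.16) in C26m2. The Hdac median in C26m2, 0.02 over 4 rows that go both ways, also became negative at q of 0.01 or less and at a log2 ratio of 1 or more (-2.27 in both), with a pseudocount of 1 FPKM (-0.018) and with 1 row per symbol (-0.65). At the same stricter q and log2 limits the Smarc median in C26m2 was -1.04, and with the log2 limit the Mll median in 4T1 was -1.003. Without Mllt genes no member was opposite (0). Without genes at the smallest p-value, which removed Mllt11, the difference test passed 0 members and 11 genes. The pseudocount also moved the falls of the low-level genes Hdac9 (-1.51 in 4T1, -1.02 in C26m2) and Smarca1 (-1.17 and -1.29) by over 1.5 times, so that neither fell furthest. Rises from low healthy levels shrank too: in 4T1 the log2 ratio of Cbx2 went from 2.27 to 1.14 and that of Arid3a from 1.96 to 1.10. A minimum of 1 FPKM changed no count by over 1.5 times and no direction. Depth is unknown, so no limit on undetected changes can be given.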
